A study of Mus musculus with 7 samples.

Results

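The genes described here are 31 genes known from the cells that wrap and sheathe brain vessels and from the meninges. They comprise 11 pericyte genes, 5 contractile genes of arterial smooth muscle, 2 transcription factor genes, 9 collagen and proteoglycan genes and 4 meningeal genes. Members were matched by exact symbol to probe sets that carry 1 gene symbol, and where a gene had several, the one with the brightest mean stood for it. All 31 were found among the 22180 genes measured.

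RNA bound to GFP-tagged ribosomes of mouse medial prefrontal cortex (mPFC) was measured on 7 one-colour Affymetrix arrays. All mice carried a ribosome TRAP (translating ribosome affinity purification) allele and an ArcCre transgene, in which Cre follows the activity-regulated gene Arc, and all received tamoxifen, which opens the labelling window. The cocaine group (15 mg/kg cocaine for 2 days, 4 arrays numbered 4 to 7) and the shock group (20 shocks of 2 s at 0.5 mA for 2 days, 3 arrays numbered 4 to 6) differ in what the mice met in that window. In both, ribosomes of cells active in the window were pulled down with an anti-GFP antibody. The labels give no strain, age or pooling of animals. They also do not say whether each array holds another animal, so the p-values rest on array-to-array spread that may be technical. Precipitates of untreated mice and RNA taken before precipitation were not analysed here, so how far each gene's RNA was enriched by the antibody was not measured.

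Mural cells are the pericytes of capillaries and the smooth muscle cells of arteries and arterioles. Endothelial cells recruit pericytes by secreting PDGF-B, which binds the receptor PDGFRB on the pericyte, and Notch signalling through NOTCH3 maintains the smooth muscle coat. Fibroblasts lie in the meninges and in the space around larger vessels, where they lay down collagens and small leucine-rich proteoglycans, and the meninges also secrete IGF2 and retinoic acid. Arc is best known as a gene of active neurons, and these 31 genes are not neuronal markers.

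The mural, fibroblast and meningeal genes had lower means in the cocaine group, and none passed the test. A difference is the cocaine mean minus the shock mean in log2 units. Of the 31 genes, 30 had a lower cocaine mean, where 49.1% of all 22180 genes did. The median difference was -0.23, against 0.0016 over all genes, and 17 of the 31 were lower by at least 0.2, where 2.85% of all genes were. By limma with Benjamini-Hochberg adjustment over all 22180 genes, 0 of the 31 passed 0.05, and 0 of all genes did (0.0%, smallest adjusted p = 0.938). At an unadjusted p under 0.05 there were 2 of the 31, both lower (Igf2 and Slc6a13), where 1.57% of all genes were lower, and 0 of the 31 were higher, where 1.53% of all genes were. The groups did not overlap for 2 of the 31 (Fmod and Slc6a13), where 1.11% of all genes were lower without overlap. In such ribosome precipitates, fewer cells of a type and less RNA per cell cannot be told apart. How much of the RNA of these 31 genes came from labelled cells was not measured.

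**Figure D1:**
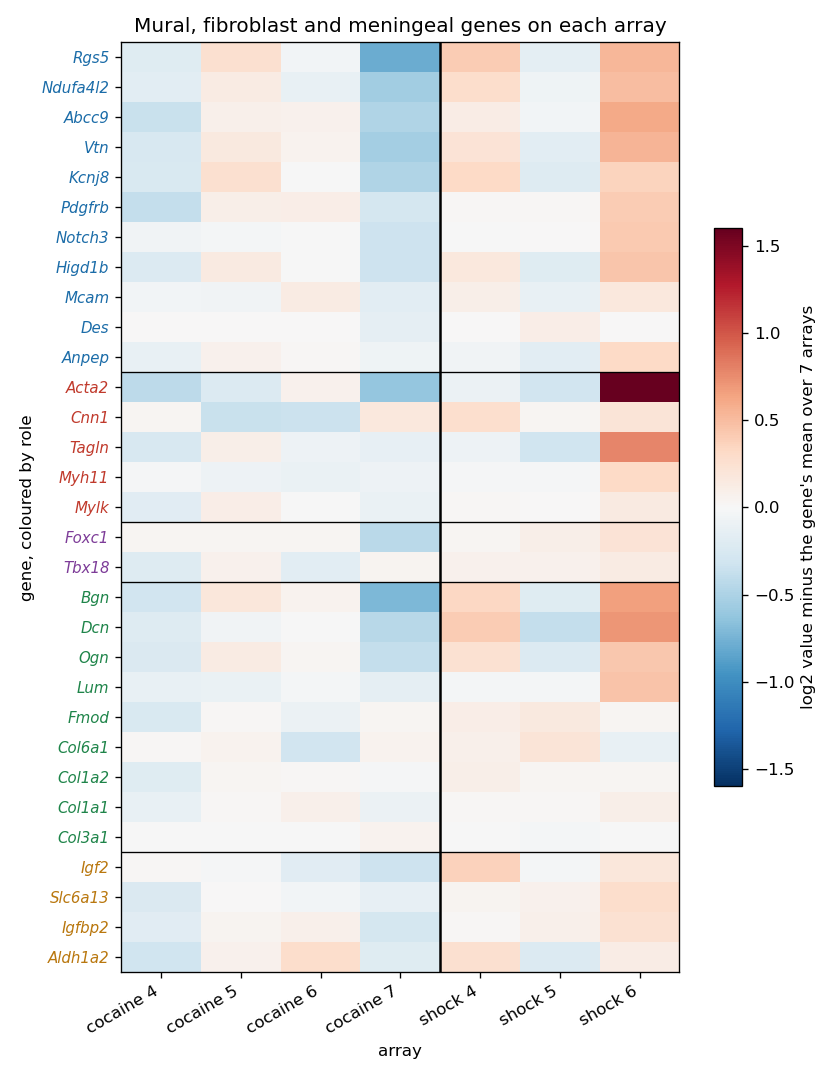
Deviation of each of the 31 genes (rows, coloured by role) from its own mean over the 7 arrays (columns), in log2 units; the vertical line parts cocaine from shock arrays. Shock array 6 is above the mean for 29 of the 31 genes, against 50.3% of all genes. Cocaine arrays 4 and 7 are above it for 5 each, against 50.7% and 51.2%.

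Most of the genes shared their high and low arrays, and the arrays between these mixed the groups. Shock array 6 had the highest value of all 7 arrays for 23 of the 31 genes, against 16.0% of all genes. It lay above the gene's own mean for 29, against 50.3% of all genes. Cocaine array 7 had the lowest value for 17 of the 31, against 12.8% of all genes, and cocaine array 4 for another 8, against 12.9%. Shock array 5 lay above the gene's own mean for 13 of the 31, against 50.2% of all genes, and cocaine array 5 for 22, against 51.6%. A list score, the mean over the 31 genes of the value minus the gene's mean over the arrays, summed this up. It was -0.26 on cocaine array 7, -0.17 on cocaine array 4, -0.065 on shock array 5, -0.017 on cocaine array 6, 0.036 on cocaine array 5, 0.12 on shock array 4 and 0.35 on shock array 6. The scores of the groups overlapped.

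The size of the difference rested in large part on shock array 6. Without it the median over the 31 genes was -0.13 and 28 of 31 had a lower cocaine mean, where 48.8% of all genes did. Without shock array 5 the median was -0.31. Leaving out each other array gave medians between -0.25 and -0.18. The 31 genes also varied more than most. Their median SD over the 7 arrays was 0.22, against 0.094 over all genes, and 27 of the 31 exceeded the latter. Over all genes the array farthest from the others was cocaine array 6, with a mean correlation of 0.9932 with them. Shock array 6 came next at 0.9955, and the remaining arrays lay between 0.9960 and 0.9961. Without cocaine array 6 the median over the 31 genes was -0.25.

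To show what the promoters of these genes look like, the bases just before the RefSeq start are given for 1 gene of each of 4 roles (genome build GRCm38.p6, 5′ to 3′ on the strand of the gene). These 4 genes were picked because their windows hold a CCAAT box, the site of the general promoter factor NF-Y, which is well known from the collagen gene Col1a2. Capitals mark matches to CCAAT (or ATTGG, its reverse complement) and to GTGGGAA (or TTCCCAC), a core of the site of RBPJ, the DNA-binding partner of Notch receptors. The Rgs5 stretch is chr1:169655351-169655500 on the plus strand, the Cnn1 stretch chr9:22099103-22099220 on the plus strand, the Tbx18 stretch chr9:87731261-87731410 on the minus strand and the Col1a2 stretch chr6:4505468-4505617 on the plus strand. The Cnn1 stretch stops before the earliest RefSeq start of the gene, while its positions are counted from the start of the window searched, which lies farther downstream.
Rgs5: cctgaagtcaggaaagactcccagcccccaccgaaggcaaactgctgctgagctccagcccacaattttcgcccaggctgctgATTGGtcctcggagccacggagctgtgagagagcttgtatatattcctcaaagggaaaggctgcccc
Cnn1: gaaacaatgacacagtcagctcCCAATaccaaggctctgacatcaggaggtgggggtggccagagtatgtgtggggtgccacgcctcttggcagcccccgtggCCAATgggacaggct
Tbx18: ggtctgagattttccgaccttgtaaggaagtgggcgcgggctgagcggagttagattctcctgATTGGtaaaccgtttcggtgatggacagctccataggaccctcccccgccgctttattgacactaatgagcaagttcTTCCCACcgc
Col1a2: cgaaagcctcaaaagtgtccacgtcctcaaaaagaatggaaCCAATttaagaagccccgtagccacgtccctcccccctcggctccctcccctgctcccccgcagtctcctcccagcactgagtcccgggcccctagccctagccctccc

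The CCAAT box begins 67 bases before the start in Rgs5, 87 in Tbx18 and 109 in Col1a2, and Cnn1 holds it at 128 and 47. RefSeq windows were at hand for 23 of the 31 genes, 29 windows in all, and the 250 bases before each start were searched on both strands. The motif CCAAT was in 9 of the 29 windows, against 33.9% of 32841 mouse promoter windows. GTGGGAA was in 4 of the 29, against 5.41% of all windows. These belong to 3 genes, as Slc6a13 holds the motif in more than 1 window. The CArG box is the site through which serum response factor drives smooth muscle genes. In its strict form it was in 1 of the 29, an Igf2 window, against 1.47% of all. The windows of Acta2, Cnn1 and Mylk did not hold it, and the contractile genes Tagln and Myh11 had no window to search. No matches of the 3 motifs overlapped in the windows of these genes. A match is a description of the letters and not a binding site.

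Pericyte genes, 11 in all, each had a lower mean in the cocaine group, with a median difference of -0.27. Pdgfrb, the receptor that defines mural cells, had 7.68, 8.15, 8.16 and 7.77 on cocaine arrays 4 to 7 and 8.08, 8.08 and 8.47 on shock arrays 4 to 6. Cocaine arrays 5 and 6 thus lay above shock arrays 4 and 5, and the groups overlapped. The means were 7.94 ± 0.25 (SD, n = 4) and 8.21 ± 0.23 (SD, n = 3), a difference of -0.27 (SE 0.16, 95% confidence interval -0.65 to 0.12).

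Rgs5, a regulator of G protein signalling and a widely used pericyte marker, had 10.27, 10.71, 10.41 and 9.66 in the cocaine group and 10.86, 10.30 and 10.99 in the shock group. Only shock arrays 4 and 6 exceeded every cocaine array. Its difference was -0.45 (SE 0.27), and a second probe set of the gene, which was dimmer, gave -0.42 with the same lowest and highest arrays. Abcc9 and Kcnj8 encode the sulfonylurea receptor and the pore of the pericyte potassium channel that is gated by ATP. Abcc9 had 7.23, 7.68, 7.66 and 7.11 against 7.71, 7.55 and 8.19, with shock array 5 inside the cocaine range. It differed by -0.40 (SE 0.20) and Kcnj8 by -0.28 (SE 0.21).

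Ndufa4l2, a mitochondrial protein gene enriched in pericytes, had the smallest unadjusted p of the pericyte genes by limma. Its values were 6.83, 7.14, 6.88 and 6.44 in the cocaine group and 7.28, 6.93 and 7.50 in the shock group, where shock array 5 lay below cocaine array 5. The difference was -0.42 (SE 0.19, adjusted p = 0.938 over all genes). Vitronectin (Vtn), which pericytes secrete into the basement membrane, differed by -0.35, Notch3 by -0.24 and Higd1b, a hypoxia-response family gene of pericytes, by -0.24. The other 3 were nearer 0. The adhesion molecule gene Mcam differed by -0.084, the intermediate filament gene Des by -0.070 and the aminopeptidase gene Anpep by -0.057.

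**Figure D2:**
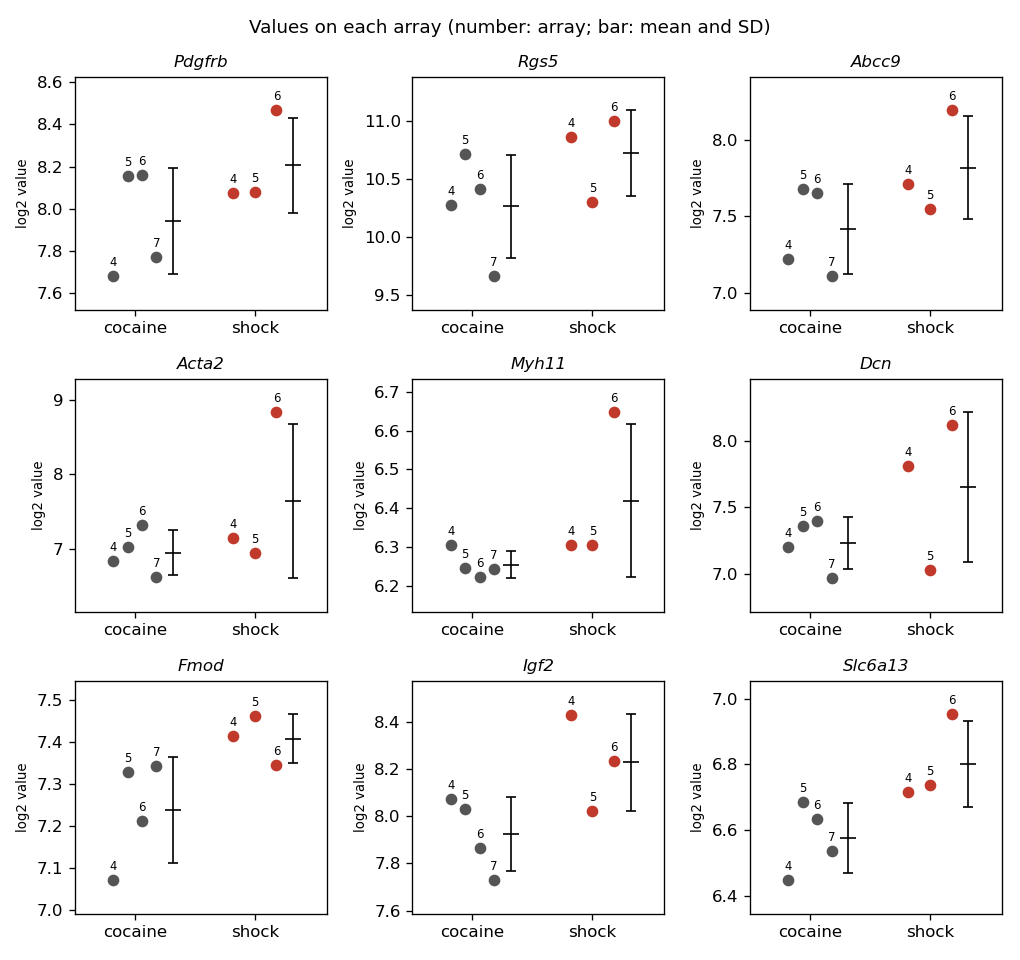
Log2 values on each array (points, numbered by array; cocaine grey, shock red) with the mean and SD of each group (black bar) for 9 of the genes; the vertical axes do not start at 0 and differ between panels. Shock array 6 is the highest point for Acta2 at 8.83, while for Fmod and Slc6a13 all shock arrays lie above all cocaine arrays.

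The 5 contractile genes of arterial smooth muscle had lower cocaine means with a median difference of -0.22, and here a single array set the size. Acta2, smooth muscle actin, had 6.83, 7.03, 7.32 and 6.62 in the cocaine group and 7.15, 6.94 and 8.83 in the shock group. Shock array 6 exceeded the next highest array, cocaine array 6, by 1.51, which is 2.86-fold, and the other 2 shock arrays lay within the cocaine range. The difference of -0.69 (SE 0.46, 95% confidence interval -1.78 to 0.40) was the largest of the 31 genes and came to -0.095 without shock array 6.

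Transgelin (Tagln), an actin-binding protein of smooth muscle, likewise had 6.28 on shock array 6 against at most 5.59 elsewhere. Its difference of -0.22 (SE 0.25) turned to 0.10 without that array. Myh11, the smooth muscle myosin heavy chain, had 6.31, 6.25, 6.22 and 6.24 against 6.31, 6.31 and 6.65, so that again shock array 6 alone was high. It differed by -0.16 (SE 0.088), or by -0.051 without shock array 6.

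Calponin (Cnn1) did not share this pattern. It had 5.08, 4.70, 4.71 and 5.22 in the cocaine group and 5.32, 5.08 and 5.25 in the shock group, with cocaine arrays 5 and 6 low and the groups overlapping. Its difference was -0.29 (SE 0.15), but its mean lay under the background level of 5.44 used here (the level under which 95% of 1373 odorant and vomeronasal receptor genes had their means), so it is called dim. Mylk, the myosin light chain kinase gene, differed by -0.10. The contractile list score was 0.61 on shock array 6, 0.018 on shock array 4 and between -0.17 and -0.090 on the other 5 arrays. The pericyte score was 0.39 on shock array 6 and 0.14 on shock array 4, and its lowest value was -0.38 on cocaine array 7. Without shock array 6 the contractile median was -0.059 and the pericyte median -0.14.

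Of the transcription factors, Foxc1, which is needed in mural cells and meninges, had 6.47, 6.47, 6.47 and 6.02 against 6.47, 6.54 and 6.66, so that cocaine array 7 alone was low. Tbx18, a T-box factor of adult mural cells, had 5.13, 5.41, 5.18 and 5.39 against 5.41, 5.41 and 5.47 and was dim. Cocaine arrays 4 and 6 were its low arrays. The differences were -0.20 (SE 0.13) and -0.15 (SE 0.079), and neither passed limma's test before adjustment.

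Collagen and proteoglycan genes had a lower cocaine mean in 8 of 9 cases, with a median of -0.17. The small leucine-rich proteoglycan genes, which encode matrix proteins that bind collagen fibrils, had the larger differences. These were -0.46 (SE 0.28) for biglycan (Bgn), -0.42 (SE 0.25) for decorin (Dcn), -0.27 (SE 0.19) for osteoglycin (Ogn), -0.23 (SE 0.12) for lumican (Lum) and -0.17 (SE 0.074) for fibromodulin (Fmod). A second, dimmer probe set of Bgn gave -0.089, so the size of its difference rests on the probe set used.

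Dcn ranged from 6.97 to 7.40 on the cocaine arrays, and its shock values were 7.81, 7.03 and 8.11. Shock arrays 4 and 6 were above all cocaine arrays and shock array 5 was near the lowest of them. Lum had 3.70, 3.71, 3.79 and 3.67 against 3.79, 3.79 and 4.28 and was dim, with shock array 6 alone apart. Without shock array 6 Dcn differed by -0.19 and Lum by -0.069.

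Fmod differed in its pattern from the other proteoglycan genes. It had 7.07, 7.33, 7.21 and 7.34 in the cocaine group and 7.41, 7.46 and 7.35 in the shock group, so the groups did not overlap, though cocaine array 7 and shock array 6 nearly met. The difference had an adjusted p = 0.938 by limma. A second, dimmer probe set of Fmod differed by 0.044, in the other direction.

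The collagen genes differed little. Col1a1 had 6.27, 6.41, 6.47 and 6.29 against 6.41, 6.41 and 6.48, with cocaine arrays 4 and 7 low. Col1a2 had 5.82, 6.05, 6.04 and 6.01 against 6.11, 6.05 and 6.05, with cocaine array 4 low. These chains of type I collagen differed by -0.071 (95% confidence interval -0.21 to 0.067) and -0.091 (-0.24 to 0.059). Col6a1 differed by -0.10. Col3a1, of type III collagen, was the 1 gene of the 31 with a higher cocaine mean, by 0.026 (95% confidence interval -0.051 to 0.10), and its values spanned only 0.092 over the 7 arrays. Most of these arrays had the identical value, 5.75, so the narrow span and interval rest in part on ties.

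The 4 meningeal genes, each with a lower cocaine mean (median -0.21), held both genes with an unadjusted p under 0.05 by limma, 0.0281 for Slc6a13 and 0.0405 for Igf2. Without shock array 6, 0 of the 31 genes had a p under 0.05 by limma, where 606 of all 22180 genes did. Without shock array 5 there were 7 of the 31, where 788 of all genes had such a p. Slc6a13, a GABA and taurine transporter of meningeal fibroblasts, had 6.45, 6.68, 6.63 and 6.54 in the cocaine group and 6.72, 6.74 and 6.95 in the shock group. Every shock array lay above every cocaine array. The means were 6.58 ± 0.11 (SD, n = 4) and 6.80 ± 0.13 (SD, n = 3). The difference was -0.23 (SE 0.081), with an adjusted p = 0.938 by limma. It ranged from -0.27 to -0.15 as each array was left out.

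Igf2, an insulin-like growth factor that the meninges secrete, had 8.07, 8.03, 7.87 and 7.73 against 8.43, 8.02 and 8.23. Shock array 5 lay just below cocaine arrays 4 and 5, and shock array 4, not 6, was the highest. The means were 7.92 ± 0.16 (SD, n = 4) and 8.23 ± 0.20 (SD, n = 3). The difference was -0.30 (SE 0.12), with an adjusted p = 0.938 by limma, and it ranged from -0.41 without shock array 5 to -0.20 without shock array 4. Igfbp2, a binding protein of this growth factor, differed by -0.20. Aldh1a2, which makes retinoic acid, differed by -0.092 with shock array 5 among its lowest values, and by 0.0069 without shock array 4.

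**Figure D3:**
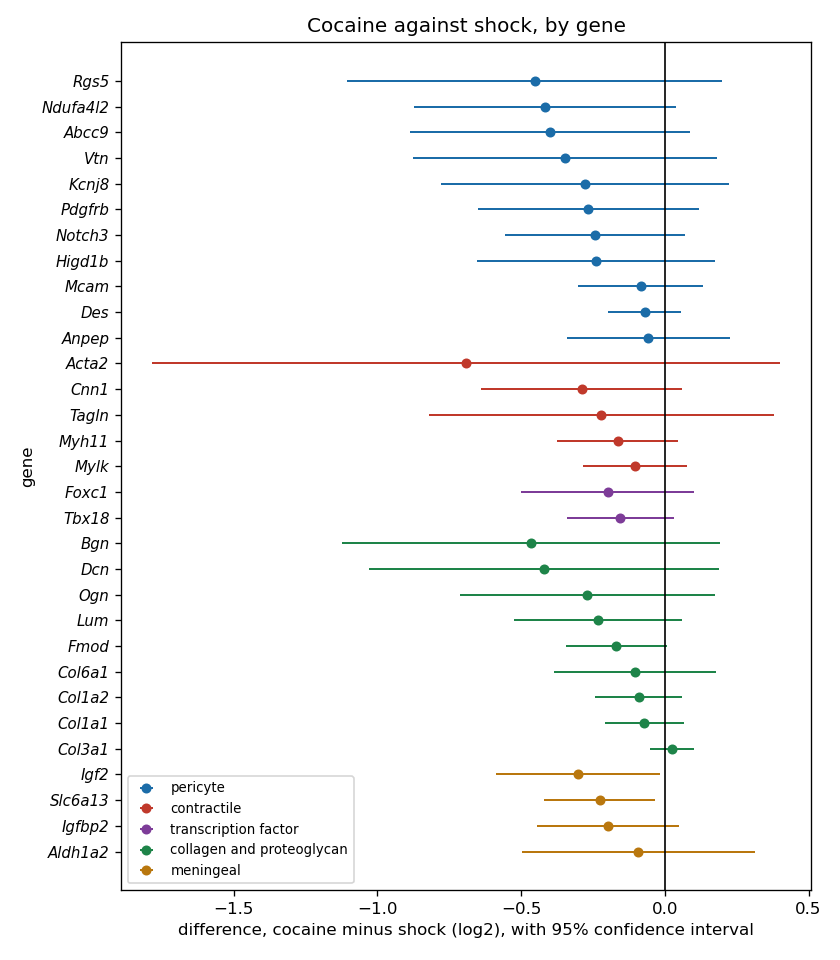
Difference between the group means (cocaine minus shock, log2; points) with its 95% confidence interval from limma (lines) for the 31 genes, ordered by role. The intervals of 29 genes include 0, and those of Igf2 and Slc6a13 do not; no gene passed after adjustment over all genes.

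Further genes of the same cells, which are not among the 31, had smaller differences. Over all 22180 genes, 49.1% had a lower cocaine mean and 1.57% were lower at an unadjusted p under 0.05 by limma. Of 19 further mural genes matched, 16 had a lower cocaine mean with a median of -0.085, and 0 had an unadjusted p under 0.05. Those with the smallest p were the extracellular protein gene Olfml2a (-0.21), the myosin light chain gene Myl9 (-0.37) and Pln, the phospholamban gene (-0.34). Of 39 further fibroblast and meningeal genes, 37 were lower with a median of -0.088. The examples were the connexin gene Gjb2 (-0.12), the prostaglandin D synthase gene Ptgds (-0.22) and the matrix protein gene Mgp (-0.22), and 1 of the 39 had an unadjusted p under 0.05. Both lists had their highest score on shock array 6 (0.22 and 0.12).

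Of 30 genes for signals to these cells and their receptors, 20 had a lower cocaine mean, where 49.1% of all genes did, with a median of -0.050. At an unadjusted p under 0.05 by limma, 1.57% of all genes were lower, and 2 of the 30 were. These were the TGF-beta receptor genes Tgfbr1 (-0.33, dim) and Eng (-0.31). The sphingosine phosphate receptor gene S1pr1 differed by -0.27. Pdgfb, the ligand of the Pdgfrb product, ranged from 7.51 to 8.03 in the cocaine group and from 7.72 to 7.92 in the shock group, with a difference of -0.064 (95% confidence interval -0.36 to 0.24). Pdgfra, the receptor gene of fibroblasts and oligodendrocyte precursors, differed by -0.040 (-0.28 to 0.21). These last genes were chosen after their values were seen.

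Markers of neighbouring cell types moved with the arrays too. All 16 endothelial markers had a lower cocaine mean (median -0.21), where 49.1% of all genes did, and 15 were above the background level. At an unadjusted p under 0.05 by limma 6 of the 16 were lower, where 1.57% of all genes were. Without overlap 3 were lower, where 1.11% of all genes were. Their score ran from -0.30 to 0.015 in the cocaine group and from 0.072 to 0.19 in the shock group, lowest on cocaine array 7 and highest on shock array 6. The example genes were Slco1a4 (-0.48), Abcb1a (-0.26) and Cdh5 (-0.30). Astrocyte markers were lower in 12 of 12 (median -0.14, among them Sox9 at -0.20, Aqp4 at -0.18 and Gja1 at -0.23), with scores of -0.18 to 0.11 in the cocaine group and -0.019 to 0.14 in the shock group. Their order differed, since shock array 5 was highest there and shock array 4 lay below 0.

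Excitatory neuron markers, all 7 above the background level, were nearly level over the arrays, with scores of -0.019 to 0.042 in the cocaine group and -0.049 to 0.020 in the shock group (median difference 0.0073). Their examples were Slc17a7 (0.081), Neurod6 (0.15) and Neurod2 (-0.059). Inhibitory neuron markers had a lower mean in 6 of 8 (median -0.10, with Sst at -0.19, Lhx6 at -0.12 and Dlx2 at -0.12) and their highest score on shock array 6 (0.15). Immediate early genes, the quick transcriptional answer of neurons to activity, scored -0.77 and -0.87 on shock arrays 4 and 6, where the 31 genes scored highest, and 0.50 on shock array 5. On cocaine arrays 4 and 7, where the 31 genes scored lowest, they scored 0.50 and 0.31, on cocaine array 5 they scored 0.61, their highest, where the 31 genes scored 0.036, and on cocaine array 6 they scored -0.28. All 12 had a higher cocaine mean, with a median of 0.52 (Npas4 1.49, Btg2 1.01, Egr4 0.54). The part of these cell types and of the activity genes in the differences of the 31 genes was not tested.

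**Figure D4:**
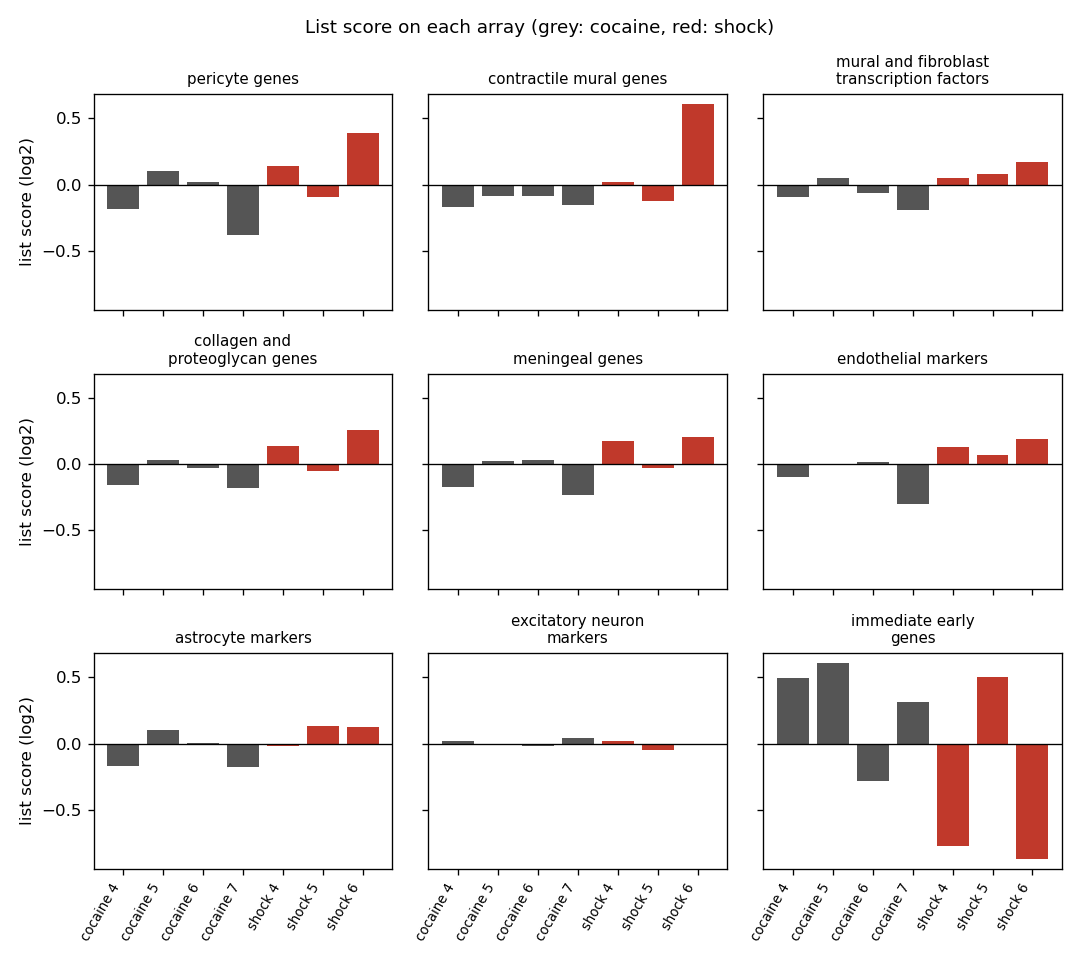
List score on each array (bars; the mean over a list's genes of the log2 value minus the gene's mean over the arrays; cocaine grey, shock red) for the 5 roles and 4 other gene lists. Shock array 6 has the highest bar in each of the 5 roles, cocaine arrays 4 and 7 lie below 0 in all of them, and the excitatory neuron bars stay within 0.05 of 0.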

How the data were processed

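The deposited values of 7 arrays were used as log2 expression values, a scale read from their range (1.12 to 13.44). Transcriptome Analysis Console is the tool listed, per the submitters' processing notes, and how the authors summarized, background-corrected and normalized the deposited log2 values is not stated there. Array medians were nearly equal (5.44 to 5.47), so a difference is set against the bulk of the array. The number of arrays limits the precision. Identical values on 2 or more arrays occurred in 55.9% of 41345 probe sets.

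Of these probe sets, 23521 had 1 gene symbol in the platform annotation, 1814 several and 16010 were unlisted. The brightest probe set per gene was kept, leaving 22180 genes; no filter on low values was applied. Of the 31 genes, 28 lay above the background level.

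Groups were compared with limma 3.58.1 (R 4.3.3; linear model with empirical Bayes moderation, two-sided, no covariate, Benjamini-Hochberg over all genes at 0.05). In simulated data with the real means and spreads of these 22180 genes, 93 of 100 genes changed 2-fold and 72 of 100 changed 1.5-fold passed, as did 5 genes that had not been changed. The changed genes were random draws, and the noise was drawn independently for each gene. The genes described vary more than most and share high and low arrays, so these rates do not apply to them.

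The genes and lists were chosen with earlier results of these data known, so lists are described by counts and medians without a test. Values on every array were given for 6 set genes, the 2 of smallest unadjusted p in each role, and those with p under 0.05 or no overlap; of other lists the 3 of smallest p were named. Genes given outside this rule (Dcn, Pdgfb and Pdgfra) were chosen after their values were seen. Alternatives left out each array, dim genes, or changed normalization, probe set rule, moderation, array weights or the replicate block. Promoter sequences are from RefSeq (GRCm38.p6).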

Additional observations from a re-analysis of the deposited data

Results flagged for a closer look

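Within the 4 cocaine arrays, 5 of 37 measures (the 31 genes and 6 list scores) had 1 array far from the others, judged by its gap to the nearest array as a share of the range against Dixon's 95% critical value. By chance about 5% of independent, untied measures would do so. Cocaine array 7 was lowest for Notch3 (0.8442 of the range, at 6.18), Des (1.0, at 5.61) and Foxc1 (1.0, at 6.02) and highest for Col3a1 (1.0, at 5.81). Cocaine array 6 was lowest for Col6a1 (0.9018, at 6.85). Des, Foxc1 and Col3a1 had identical values on the other cocaine arrays, which makes the gap the whole range. With 3 arrays the shock group is too small for this rule, so the Acta2 value of shock array 6 stands without such a test.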

How the results depend on the processing

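Under all 14 alternatives run, 0 genes passed limma's adjusted threshold, with 531 to 915 genes at an unadjusted p under 0.05 (688 as reported). Of the 31 genes, 0 to 7 had such a p (2 as reported). There were 0 without shock array 6, where 606 of all genes had one, and 7 without shock array 5, where 788 did. The median over the 31 genes stayed below 0, from -0.31 to -0.13 as each array was left out and from -0.23 to -0.18 under the others, and 28 to 30 of 31 genes had a lower cocaine mean (27 of 28 with dim genes left out). Some alternatives could not turn the difference of a gene. The change of moderation and the removal of dim genes left it as it was. The probe set rule acts only on genes with several probe sets, and the replicate block gave the same differences as leaving out cocaine array 7. Of 431 differences of single genes under an alternative, these included, 428 kept their direction. Those that turned were Aldh1a2 without shock array 4 (0.0069) and Tagln and Anpep without shock array 6 (0.10 and 0.088; their lowest values as arrays were left out were -0.44 and -0.16, and that of Aldh1a2 was -0.23). Leaving out shock array 6 moved 19 of the 31 differences by over 1.5 times, shock array 5 moved 14 and cocaine array 7 moved 9. With the title number as a replicate block the median was -0.18 and 0 genes passed, with 915 at an unadjusted p under 0.05, 4 of the 31 among them. It is not stated whether arrays of the same number belong together. Deviations of same-numbered arrays from their group means correlated at 0.13, 0.064 and 0.16 over genes. The other pairs of arrays correlated at -0.12 to 0.090, highest for shock array 5 with cocaine array 7. Whether the numbers mark a pairing or a shared batch was not tested. Dim values limit Cnn1, Tbx18 and Lum, and Tagln and Aldh1a2, with means of 5.50 and 5.49, lay just above the background level of 5.44.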

Other observations

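Choroid plexus markers, from another tissue that borders the brain, were lower in the cocaine group in 6 of 7 genes (median -0.17, with Kl at -0.41, the dim genes Kcne2 at -0.098 and Folr1 at -0.17). The lowest difference in this list was -1.13, and 3 of the 7 genes were dim. Their scores followed the order of the 31 genes only in part. Cocaine array 7 was low in both (-0.37 here), and shock arrays 4 and 6 were high in both (0.44 and 0.22 here). Shock array 5 had -0.16 and cocaine array 5 had 0.14. On cocaine arrays 4 and 6 the choroid plexus scores were 0.21 and -0.47, where the 31 genes scored -0.17 and -0.017. Microglia and macrophage markers, 6 of the 14 dim, had nearly level scores (-0.023 to 0.022, 8 of 14 lower, median -0.042). Their examples were Cx3cr1 (-0.18), the dim gene Cd163 (0.13) and Tmem119 (-0.095). Oligodendrocyte markers were lower in 3 of 9 (median 0.057, with Olig2 at -0.16, Cldn11 at 0.14 and Mobp at 0.15), and their lowest score was on shock array 6 (-0.12), where the 31 genes scored highest. None of these genes passed limma's adjusted threshold.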
